A study of Homo sapiens with 8 samples.

Results

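Fatty acid synthesis and desaturation was followed through 10 genes, FASN, ACACA, ACLY, SCD, ELOVL6, FADS1, FADS2, SREBF1, ACSS2 and ME1. They were picked by gene symbol out of 36474 genes counted in LNCaP cells, an established line from a human prostate carcinoma metastasis, and all 10 passed the filter on low counts. The cells of every group were first starved in serum-free, calcium-free medium. Recombinant human asporin (ASPN, a small proteoglycan secreted by stromal cells; here the D14 variant) was then added at 100 ng/mL, and RNA was sequenced at 0 h (2 libraries), 12 h (3 libraries) and 24 h (3 libraries). Cells starved equally long without ASPN were not analysed here, so the time spent starved cannot be told apart from the effect of ASPN at either later time. The labels call the libraries biological replicates of 1 cell line, without saying whether they came from separate cultures, and the p values therefore measure the spread between these libraries only.

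Cells build fatty acids from cytosolic acetyl-CoA, which ACLY cleaves from citrate and ACSS2 makes from acetate. ACACA carboxylates acetyl-CoA to malonyl-CoA, and FASN joins these units into palmitate with NADPH, part of which ME1 supplies by oxidizing malate. ELOVL6 lengthens the chain, SCD places the first double bond, and FADS2 and FADS1 desaturate polyunsaturated chains. SREBF1 encodes SREBP-1, the membrane-bound transcription factor that drives most of these genes, and prostate carcinoma cells are known for making much of their own fatty acid.

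Library totals ran from 73406825 to 96962135 counts, so the least counted of the 10 genes, ELOVL6, still had 4754 to 7622 counts per library. All 10 markers of prostate epithelial lines were detected, KLK3 and FOLH1 among them. Their summed level was 4858 to 4965 CPM (counts after scaling for library depth) at 0 h, 5416 to 5452 CPM at 12 h and 5414 to 5602 CPM at 24 h. The sum was thus higher in all 6 later libraries, but the single markers differed. Mean KLK3 was 965, 1356 and 1194 CPM at 0, 12 and 24 h. FOLH1 was at 1800, 1700 and 1970 CPM, and KRT18 at 433.5, 422.5 and 392.2 CPM. The part of these markers in the results was not tested. Fibroblast, leukocyte, endothelial and adipocyte markers summed to at most 23.9, 0.371, 17.3 and 0.774 CPM in any library. PTPRC, CD3E, PECAM1, DCN and CIDEC had at most 7 counts in any library, while COL1A1 and VWF made up most of the fibroblast and endothelial sums. On the first principal component of well-counted genes the 0 h libraries lay at -20.2 and -13.6, further from each other than the libraries of either later time.

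After 12 h, 8 of the 10 genes were higher than at 0 h at an adjusted p of 0.05 in edgeR's quasi-likelihood test (Benjamini-Hochberg over all genes), against 4.85% of the 21071 genes tested. These were FASN, ACLY, SCD, ELOVL6, FADS1, FADS2, SREBF1 and ACSS2. ME1 was lower, as were 6.75% of all genes, and ACACA did not pass. None of the 10 changed by the 1.5-fold that the study required in addition, in edgeR or in DESeq2, whereas 1.05% of all genes did so in edgeR. The median log2 change of the 10 genes was 0.22, against -0.00069 over all genes tested. In bulk RNA, a different number of cells expressing a gene and a different amount of its RNA per cell cannot be told apart.

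By 24 h, fewer of the genes stood above 0 h. ELOVL6, FADS2 and SREBF1 were higher (7.82% of all genes were), ME1 was lower (8.49% of all genes were), and the other 6 did not pass. By either tool 0 passed the 1.5-fold rule, which 2.45% of all genes did. The median log2 change of the 10 genes was 0.096, against -0.0031 over all genes. Between 12 h and 24 h, FASN, ACLY and ACSS2 fell, while 1.61% of all genes did, and 7 of the 10 did not pass. In edgeR and DESeq2, 0 of the 10 rose between these times at an adjusted p of 0.05, when 1.12% of all genes rose in edgeR. At an unadjusted p under 0.05, for which the share of all genes is not given here, 0 of the 10 rose as well. The 1.5-fold rule was passed by 0 of the 10 in either tool and by 0.18% of all genes in edgeR. The comparisons share libraries, so their values are not independent of each other.

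Scaled to the merged length of all annotated exons of each gene, the genes differed far more from each other than between times. This length takes in the exons of every annotated isoform and was 10553 bases for FADS2 but 5245 for SCD. A gene whose main transcript is shorter than it gets too low a value. The order and ranks below therefore hold for this length only. SCD had the highest level, 553 ± 28.2 CPM per kilobase (SD, n = 2) at 0 h, and ranked between 41 and 52 among all genes in the 8 libraries. ACLY followed at 194 ± 2.12, FADS2 at 174 ± 3.33 and FASN at 132 ± 13 CPM per kilobase (SD, n = 2). The remaining genes were at 60.6 ± 4.40 for ME1, 42.7 ± 2.22 for SREBF1, 38.8 ± 1.34 for FADS1, 29.0 ± 1.2 for ACACA, 16.9 ± 0.108 for ACSS2 and 8.94 ± 0.0732 CPM per kilobase for ELOVL6 (SD, n = 2). At 0 h no neighbours in this order overlapped. At 12 h ACLY and FADS2 overlapped, at 223 ± 3.83 and 215 ± 4.81 CPM per kilobase (SD, n = 3), and so did ME1 and SREBF1, at 53.0 ± 0.207 and 50.9 ± 2.4. At 24 h no neighbours overlapped, and FADS2 stood above ACLY, at 208 ± 1.29 and 199 ± 3.44 CPM per kilobase (SD, n = 3), with ME1 at 51.4 ± 1.13 CPM per kilobase and SREBF1 at 48.0 ± 1.21. Together the 10 genes took 0.833% and 0.838% of all counts at 0 h, 0.998% to 1.01% at 12 h and 0.912% to 0.935% at 24 h, without overlap between the times. SCD alone supplied 31.1% to 35.5% of these counts.

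**Figure D1:**
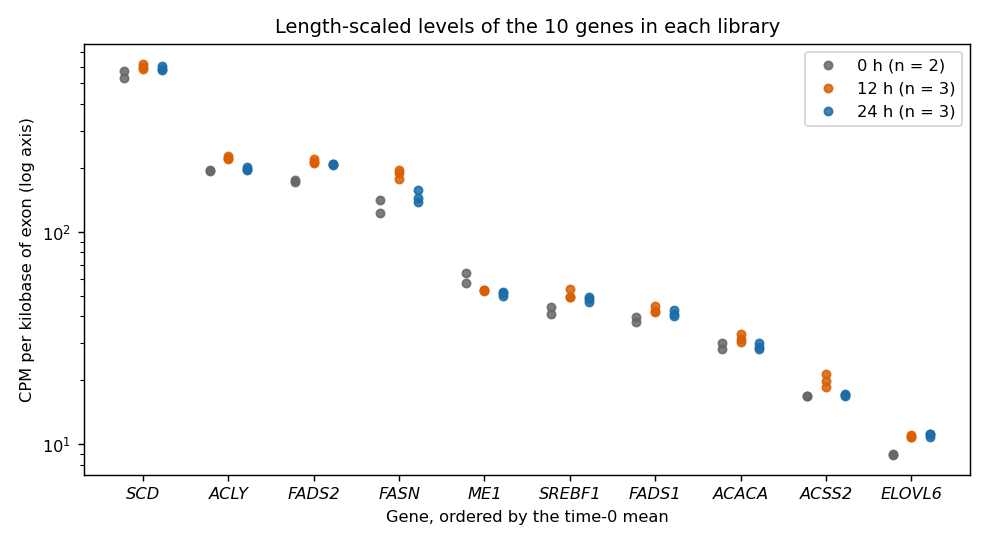
Length-scaled level of each gene in each library (CPM per kilobase of merged annotated exon, log axis), ordered by the 0 h mean, with 1 point per library (grey 0 h, orange 12 h, blue 24 h). SCD lies highest (553 at 0 h) and ELOVL6 lowest (8.94 at 0 h), and the spread between genes exceeds the shift between times.

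The sequence just upstream of the start site was examined for 9 of the 10 genes, through 14 windows of 250 bases taken from RefSeq (GRCh38.p14). No window was available for FASN. Both strands were searched for the letters of 4 motifs: the sterol regulatory element TCACNCCAC, the E-box CACGTG, the CCAAT box CCAAT and the GC box GGGCGG. Overlapping matches were counted separately. The sterol element and the E-box matched in 0 of the 14 windows, and in 0.880% and 6.34% of 35116 windows of the same length over all genes. At such low shares few or no matches would be found in 14 windows of any genes, so the 0 says little about these. The CCAAT box matched in 6 of the 14 (32.0% of all windows) and the GC box in 12 of the 14 (42.6% of all windows). Several windows can belong to 1 gene: ACACA has 3, and ACLY, FADS2 and ACSS2 have 2 each. Those of ACLY overlap each other, as do those of FADS2, so some matches are counted again. The windows with a CCAAT box belong to ACACA, ACLY, SCD and ACSS2 only. Most windows lie wholly inside the annotated gene, and some are largely exon: 194 of 250 bases for FADS1, and 196 and 148 for the windows of FADS2. The 14 windows are thus not separate promoters, and enrichment was not tested. A match describes letters only, and the absence of a match concerns this window alone. The windows below belong to genes with unlike time courses: ACLY rose and fell back, SCD had the highest level, SREBF1 was higher at both later times and ME1 was lower at both. They were chosen among windows with at most 16 bases inside annotated exons, and capitals mark matches to the CCAAT box (also written ATTGG on the other strand) or the GC box (CCGCCC on the other strand).
ACLY, chr17:41919023-41919272, minus strand: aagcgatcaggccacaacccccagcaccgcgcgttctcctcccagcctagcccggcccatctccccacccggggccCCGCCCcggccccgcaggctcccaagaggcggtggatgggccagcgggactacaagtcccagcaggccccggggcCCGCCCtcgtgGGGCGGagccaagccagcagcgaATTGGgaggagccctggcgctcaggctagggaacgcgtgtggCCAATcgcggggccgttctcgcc
SCD, chr10:100346983-100347232, plus strand: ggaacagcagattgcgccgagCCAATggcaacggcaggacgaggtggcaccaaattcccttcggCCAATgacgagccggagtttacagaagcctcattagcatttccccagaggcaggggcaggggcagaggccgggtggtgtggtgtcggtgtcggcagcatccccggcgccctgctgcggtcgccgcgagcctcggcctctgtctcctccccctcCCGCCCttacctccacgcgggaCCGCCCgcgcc
SREBF1, chr17:17836987-17837236, minus strand: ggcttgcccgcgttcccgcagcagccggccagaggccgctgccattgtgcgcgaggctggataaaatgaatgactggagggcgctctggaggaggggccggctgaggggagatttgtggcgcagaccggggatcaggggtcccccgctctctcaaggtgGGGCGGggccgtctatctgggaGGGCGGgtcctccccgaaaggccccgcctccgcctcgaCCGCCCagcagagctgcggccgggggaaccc
ME1, chr6:83431052-83431301, minus strand: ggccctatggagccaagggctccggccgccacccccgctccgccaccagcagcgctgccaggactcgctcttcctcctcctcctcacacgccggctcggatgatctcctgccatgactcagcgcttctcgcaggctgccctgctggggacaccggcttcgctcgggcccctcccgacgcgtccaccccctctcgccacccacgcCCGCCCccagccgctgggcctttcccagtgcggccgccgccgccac

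These windows differ in their motifs. ACLY holds 2 CCAAT and 3 GC box matches, SCD holds 2 of each, SREBF1 holds 3 GC boxes and ME1 holds 1 GC box. The ACLY window lies inside the GENCODE gene, upstream of an inner start site, and overlaps no annotated exon, whereas those of SCD and ME1 lie directly before the annotated gene. SREBF1's window reaches 16 bases into its first exon.

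Both enzymes that make acetyl-CoA rose by 12 h and fell back by 24 h. ACLY (ENSG00000131473.17, GRCh38 chromosome 17, 41866917 to 41930542, minus strand) was at 1019 and 1003 CPM at 0 h, 1182, 1142 and 1161 CPM at 12 h, and 1026, 1022 and 1055 CPM at 24 h. Every 12 h library was above every other library, and the 24 h libraries lay just above those of 0 h. The level at 12 h was 14.9% above that at 0 h (log2 change 0.20, SE 0.040, adjusted p 0.000846 in edgeR). From 12 h to 24 h it fell by 0.17 on the log2 scale (SE 0.036, adjusted p 0.00608 in edgeR). Without 24 h replicate 1 or 24 h replicate 2 the adjusted p of this fall was 0.0625 or 0.0627, with log2 changes of -0.16 and -0.17. At 24 h, ACLY differed from 0 h by a log2 change of 0.033 (95% confidence interval -0.049 to 0.11, adjusted p 0.668 in edgeR).

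ACSS2, the acetate-using enzyme (ENSG00000131069.20, chromosome 20, 34872146 to 34927962, plus strand), had the same order of groups. ACSS2 was at 88.2 and 89.0 CPM at 0 h, 113, 105 and 97.9 CPM at 12 h, and 89.9, 88.7 and 90.9 CPM at 24 h. The 12 h libraries were the highest and the most spread, and the 0 h and 24 h libraries overlapped. The rise to 12 h was 18.6% (log2 change 0.25, SE 0.052, adjusted p 0.00145 in edgeR). The later fall to 24 h (log2 change -0.23, SE 0.046, adjusted p 0.00389 in edgeR) was the only fall between 12 h and 24 h among the 10 genes that passed in all 16 alternative analyses.

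ME1, the cytosolic malic enzyme (ENSG00000065833.9, chromosome 6, 83210402 to 83431051, minus strand), moved the other way. ME1 was at 213 and 192 CPM at 0 h, 178, 177 and 176 CPM at 12 h, and 167, 172 and 175 CPM at 24 h. The 0 h libraries were the highest, and the 3 groups did not overlap. ME1 fell by 12.6% at 12 h (log2 change -0.19, SE 0.046, adjusted p 0.0046 in edgeR) and by 15.2% at 24 h (log2 change -0.24, SE 0.046, adjusted p 0.000318 in edgeR), both against 0 h. The 12 h result rested on 0 h replicate 1, the highest library: without it the log2 change was -0.12 with an adjusted p of 0.272, whereas the 24 h result passed in all 15 alternatives.

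FASN had the largest change of the 10 genes. FASN (ENSG00000169710.9, chromosome 17, 82078338 to 82098294, minus strand) was at 1144 and 1315 CPM at 0 h, 1757, 1653 and 1820 CPM at 12 h, and 1472, 1341 and 1283 CPM at 24 h. Every 12 h library exceeded all others, and the 0 h and 24 h libraries overlapped. At 12 h it was 41.8% higher than at 0 h (95% confidence interval 30.5% to 54.1%), which is 0.50 on the log2 scale (SE 0.058, adjusted p 2.85e-06 in edgeR). Without the 0 h library that carries no replicate number, FASN passed 1.5-fold (log2 change 0.62), the only 1 of the 10 genes to do so. From 12 h to 24 h FASN fell by 0.35 on the log2 scale (SE 0.051, adjusted p 0.000278 in edgeR), a call that was lost without 12 h replicate 1 (log2 change -0.35, adjusted p 0.181). At 24 h the log2 change from 0 h was 0.15 (SE 0.057, adjusted p 0.0773 in edgeR), and it passed without the unnumbered 0 h library (log2 change 0.26, adjusted p 0.00581), without 24 h replicate 3 (0.19, adjusted p 0.0307) or without a filter on low counts (0.16, adjusted p 0.00487). It was smaller without 0 h replicate 1 (0.050, adjusted p 0.762) or without 24 h replicate 1 (0.094, adjusted p 0.343).

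ACACA, which makes the malonyl-CoA that FASN uses, had its highest mean at 12 h but passed no test with all libraries. ACACA (ENSG00000278540.5, chromosome 17, 37084992 to 37406836, minus strand) was at 367 and 390 CPM at 0 h, 394, 407 and 431 CPM at 12 h, and 392, 372 and 364 CPM at 24 h. The 12 h libraries lay above the others, by a small margin at the edges. Its log2 change was 0.12 at 12 h (95% confidence interval 0.024 to 0.21, adjusted p 0.0987 in edgeR) and -0.0074 at 24 h against 0 h (-0.10 to 0.087, adjusted p 0.948). The 12 h rise passed without the unnumbered 0 h library (0.17, adjusted p 0.036) or without 12 h replicate 1 (0.15, adjusted p 0.017), and without that 12 h library the fall to 24 h passed as well (-0.16, adjusted p 0.0157). The 12 h rise was smaller without 0 h replicate 1 (0.075, adjusted p 0.611) or without 12 h replicate 3 (0.087, adjusted p 0.354).

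**Figure D2:**
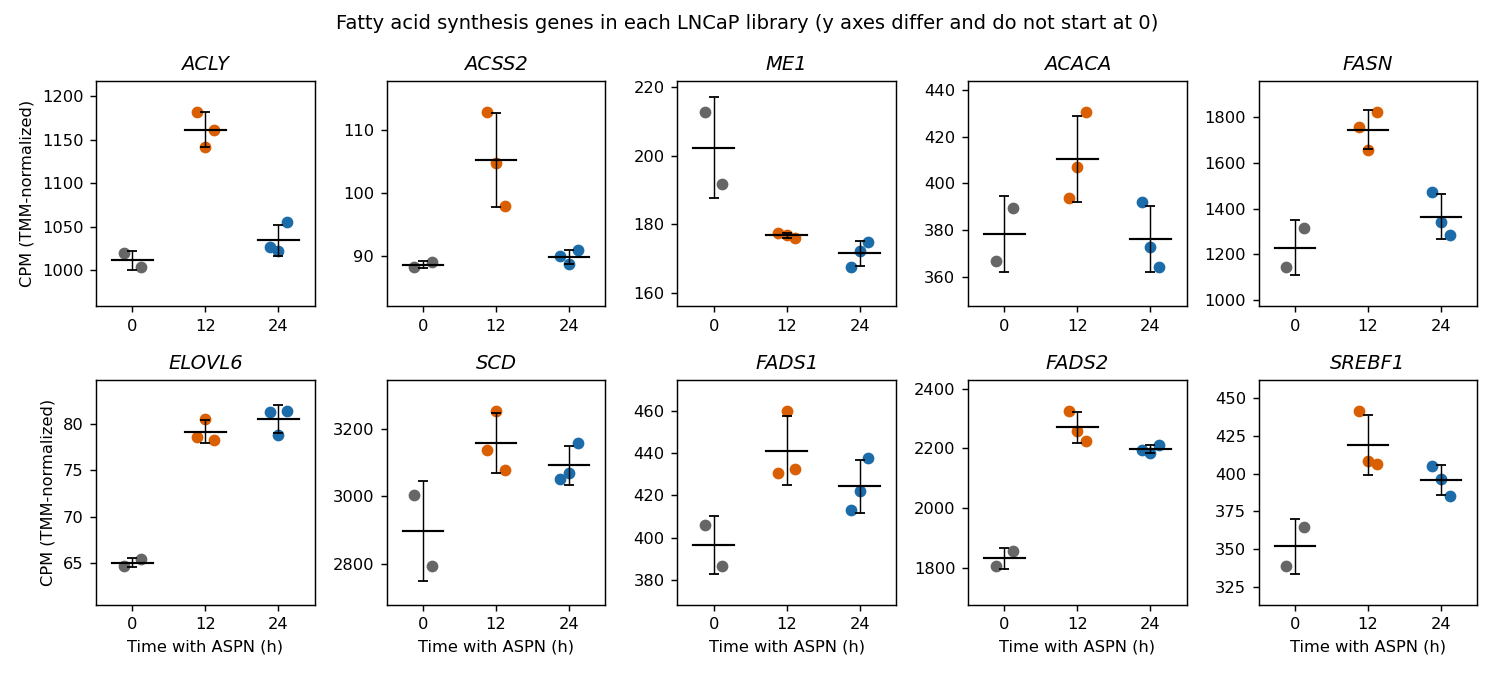
TMM-normalized CPM of each gene in each library against hours with ASPN, with 1 point per library, a bar at the group mean and whiskers of 1 SD (n = 2 at 0 h, 3 at 12 h and 3 at 24 h). The y axes differ and do not start at 0. ACLY, ACSS2 and FASN peak at 12 h, ELOVL6 and FADS2 stay up at 24 h, and ME1 is highest at 0 h.

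Of the elongation and desaturation genes, ELOVL6 and FADS2 were higher at both later times. ELOVL6, which extends palmitate to stearate (ENSG00000170522.10, chromosome 4, 110045846 to 110199199, minus strand), was at 64.6 and 65.4 CPM at 0 h, 78.6, 80.6 and 78.3 CPM at 12 h, and 81.4, 78.8 and 81.5 CPM at 24 h. All 6 later libraries lay above both 0 h libraries, and the 12 h and 24 h libraries overlapped. The gene was 21.8% higher at 12 h (log2 change 0.28, SE 0.048, adjusted p 0.000107 in edgeR) and 23.9% higher at 24 h (log2 change 0.31, SE 0.048, adjusted p 1.5e-05). From 12 h to 24 h it differed by 0.025 on the log2 scale (95% confidence interval -0.062 to 0.11).

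FADS2, the delta-6 desaturase (ENSG00000134824.14, chromosome 11, 61792980 to 61867354, plus strand), was at 1808 and 1858 CPM at 0 h, 2326, 2260 and 2226 CPM at 12 h, and 2195, 2186 and 2213 CPM at 24 h. The 3 groups did not overlap. FADS2 was 23.9% higher at 12 h (log2 change 0.31, SE 0.040, adjusted p 2.1e-06 in edgeR) and 19.9% higher at 24 h (log2 change 0.26, SE 0.040, adjusted p 9.46e-06 in edgeR). Between 12 h and 24 h the log2 change was -0.047 (95% confidence interval -0.12 to 0.025, adjusted p 0.615).

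FADS1, the delta-5 desaturase that acts after FADS2 (ENSG00000149485.19, chromosome 11, 61799627 to 61829318, minus strand), was at 406 and 387 CPM at 0 h, 430, 460 and 433 CPM at 12 h, and 413, 422 and 438 CPM at 24 h. The later libraries were all above 0 h, and 12 h and 24 h overlapped. It rose by 11.3% at 12 h (log2 change 0.15, SE 0.044, adjusted p 0.019 in edgeR), and at 24 h its log2 change was 0.098 (95% confidence interval 0.0079 to 0.19, adjusted p 0.14). The 12 h call was lost without the unnumbered 0 h library (0.13, adjusted p 0.103), without 12 h replicate 2 (0.12, adjusted p 0.0681) and in a fit of these time points alone (0.15, adjusted p 0.0715). FADS1 and FADS2 lie on opposite strands and share 490 exon bases, which are 4.79% of the exon bases of FADS1 and 4.64% of those of FADS2, and the strand setting of the counting is not given in the sources used here.

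SCD, the stearoyl-CoA desaturase (ENSG00000099194.6, chromosome 10, 100347233 to 100364826, plus strand), changed least among the genes that passed at 12 h. SCD was at 3002 and 2793 CPM at 0 h, 3138, 3253 and 3078 CPM at 12 h, and 3050, 3068 and 3158 CPM at 24 h. The 0 h libraries were the lowest but differed from each other by more than the distance from the higher of them to most later libraries. Its 12 h log2 change was 0.12 (SE 0.041, adjusted p 0.0487 in edgeR), and the call was lost in 7 of 15 alternatives, among them the analysis without the unnumbered 0 h library (0.083, adjusted p 0.283). At 24 h the log2 change was 0.093 (SE 0.041, adjusted p 0.132 in edgeR), which passed in a fit of these time points alone (0.097, adjusted p 0.0477) and after a correction for GC content and exon length (0.11, adjusted p 0.0165). A processed pseudogene, SCDP1, matches SCD at 96.7% over 1081 bases but had 127 counts over all 8 libraries, against 203087 or more for SCD in each.

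SREBF1, the regulator of the set (ENSG00000072310.18, chromosome 17, 17810399 to 17837002, minus strand), was at 339 and 365 CPM at 0 h, 442, 408 and 407 CPM at 12 h, and 405, 396 and 386 CPM at 24 h. The groups did not overlap. SREBF1 was 19.1% higher at 12 h (log2 change 0.25, SE 0.046, adjusted p 0.000307 in edgeR) and 12.5% higher at 24 h (log2 change 0.17, SE 0.046, adjusted p 0.00915 in edgeR). The 24 h call was lost without 0 h replicate 1 (0.11, adjusted p 0.253) and without 24 h replicate 1 (0.15, adjusted p 0.0645). It shares 556 exon bases, 6.75% of its own, with RAI1 on the other strand. The count covers both SREBP-1 isoforms and says nothing of the cleaved protein.

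**Figure D3:**
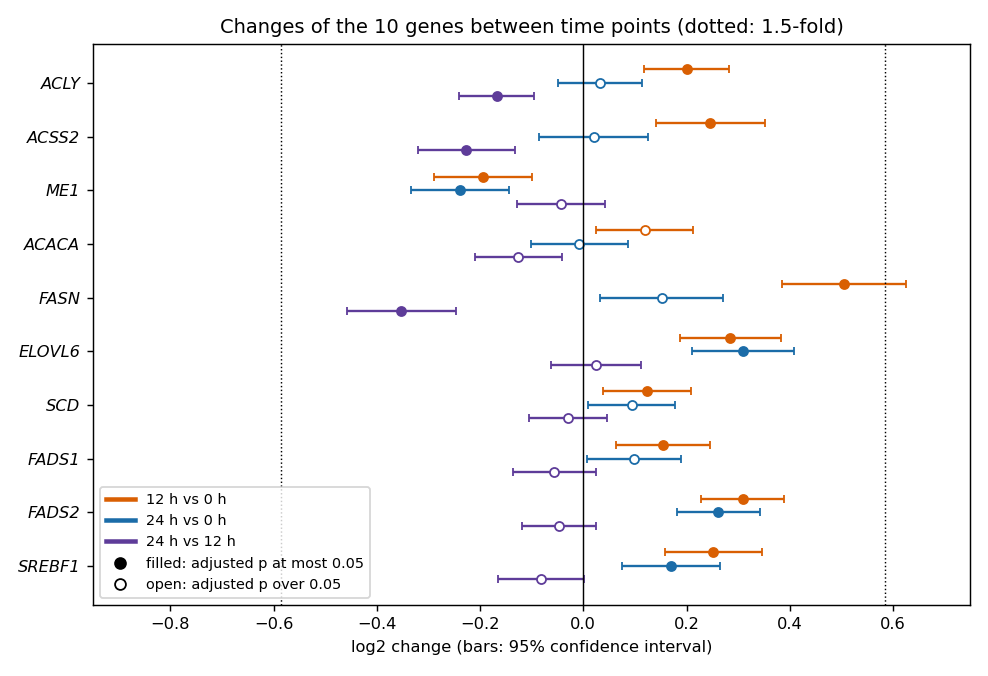
Log2 change of each gene between time points with its 95% confidence interval (orange 12 h against 0 h, blue 24 h against 0 h, purple 24 h against 12 h). Filled points have an adjusted p of at most 0.05, and dotted lines mark 1.5-fold, which no point reaches: the changes run from -0.35 (FASN, 24 h against 12 h) to 0.50 (FASN, 12 h against 0 h).

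Counted by libraries alone, 9 of the 10 genes were higher and 1 was lower without overlap at 12 h against 0 h, where 17.3% and 19.6% of all genes were. At 24 h against 0 h, 6 were higher and 1 was lower, against 21.5% and 21.7% of all genes. For 24 h against 12 h, 0 were higher and 7 were lower, against 10.3% and 9.33% of all genes. Relative to SCD, FASN stood at 0.214 and 0.265 (ratio of CPM per kilobase) at 0 h, 0.286 to 0.333 at 12 h and 0.229 to 0.272 at 24 h, so only the 12 h libraries were apart from the rest.

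The base composition of transcripts moved with these comparisons. Among well-counted genes, those with a GC content of 60% or more had a median log2 change of 0.11 at 12 h and 0.12 at 24 h against 0 h, and those with 45% or less had -0.084 and -0.055. FASN has a GC content of 65.3%, SREBF1 63.2%, FADS2 58.6%, ACSS2 53.7%, ACLY 52.3%, FADS1 49.3%, ACACA 48.9%, SCD 46.5%, ELOVL6 41.4% and ME1 39.3%. After correction for GC content and length in edgeR, the 12 h changes were 0.37 for FASN (adjusted p 7.05e-07), 0.22 for FADS2 (adjusted p 1.46e-05), 0.36 for ELOVL6 (adjusted p 6.9e-08) and 0.14 for SREBF1 (adjusted p 0.00475). The corrected change of ME1 no longer passed at 12 h (-0.092, adjusted p 0.1) but passed at 24 h (-0.17, adjusted p 0.000754). At 24 h SREBF1 no longer passed (0.046, adjusted p 0.408), FASN had a corrected change of 0.0077 (adjusted p 0.94), and ELOVL6 and FADS2 still passed, with 0.36 (adjusted p 1.48e-08) and 0.19 (adjusted p 7.67e-05). The falls of FASN, ACLY and ACSS2 from 12 h to 24 h kept their size, at -0.37, -0.16 and -0.22.

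Genes around the pathway were read from 11 related lists with 129 genes, of which 123 were tested, and 0 passed the 1.5-fold rule in any comparison in edgeR. Of all genes tested, 4.85% were higher and 6.75% lower at 12 h against 0 h at an adjusted p of 0.05. At 24 h against 0 h the shares were 7.82% and 8.49%, and at 24 h against 12 h 1.12% and 1.61%. A count near these shares in a short list is no result about that list. Some members past an adjusted p of 0.05 in edgeR are named below, beyond a fixed pair per list, after their values were seen. Among SREBP processing genes and partners, 0 of 6 passed at 12 h against 0 h in edgeR, at an unadjusted p under 0.05 or in DESeq2, with a median log2 change of -0.018. INSIG1, which retains SREBP in the endoplasmic reticulum, was the only 1 of 6 to pass at 24 h against 0 h. It averaged 539 ± 46.1 CPM before ASPN (SD, n = 2) and 462 ± 17.7 CPM after 24 h (SD, n = 3). Its log2 change was -0.22 (adjusted p 0.00118 in edgeR), a call lost without 0 h replicate 1, which leaves 1 library at 0 h. MBTPS1, the site-1 protease that cleaves SREBP, had a log2 change of -0.054 at 24 h (adjusted p 0.519).

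Among 15 other regulators of lipogenic transcription, 2 rose and 2 fell at each later time. Of all genes, 4.85% rose and 6.75% fell at 12 h, and 7.82% rose and 8.49% fell at 24 h. MLXIP, which encodes the glucose-sensing factor MondoA, averaged 124 ± 2.68 CPM before ASPN (SD, n = 2), 156 ± 10.5 CPM after 12 h and 145 ± 3.43 CPM after 24 h (SD, n = 3), with log2 changes of 0.34 and 0.22 (adjusted p 2.15e-05 and 0.00169 in edgeR). SP1, which binds GC boxes, fell from 113 ± 0.699 CPM to 99.5 ± 5.63 and 91.3 ± 1.27 CPM, with log2 changes of -0.19 and -0.31 (adjusted p 0.0102 and 1.75e-05 in edgeR). PPARG fell at both times (-0.34 and -0.45, adjusted p 0.0463 and 0.00494 in edgeR). NR1H3 rose at 12 h (0.25, adjusted p 0.0497 in edgeR) and RXRA at 24 h (0.19, adjusted p 0.00483 in edgeR). The 12 h calls of PPARG and NR1H3 lie close to the threshold.

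In the list for citrate and NADPH supply, 1 of 8 genes rose and 1 fell at 12 h, and 2 rose and 1 fell at 24 h. SLC25A1, the mitochondrial citrate carrier, averaged 189 ± 7.71 CPM before ASPN (SD, n = 2), 217 ± 9.61 CPM after 12 h and 226 ± 1.75 CPM after 24 h (SD, n = 3), with log2 changes of 0.20 and 0.26 (adjusted p 0.00325 and 0.000112 in edgeR). IDH1, the cytosolic NADP-dependent isocitrate dehydrogenase, fell at both times, from 699 ± 59.3 CPM to 538 ± 6.33 and 508 ± 15.8 CPM, with log2 changes of -0.38 and -0.46 (adjusted p 9.9e-07 and 6.29e-09 in edgeR).

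Elongases and desaturases outside the set of 10 moved in both directions. At 12 h ELOVL1 rose (0.18) and ELOVL5 and HACD2 fell (-0.15 and -0.17), out of 13 tested. These 12 h calls were lost without 0 h replicate 1, which leaves 1 library at 0 h. At 24 h SCD5, ELOVL1 and TECR rose and ELOVL7 fell. SCD5, the second human stearoyl-CoA desaturase, averaged 24.0 ± 0.426 CPM before ASPN (SD, n = 2), 24.6 ± 1.44 CPM after 12 h and 30.1 ± 1.95 CPM after 24 h (SD, n = 3), with a log2 change of 0.33 at 24 h against 0 h (adjusted p 0.000672 in edgeR) and 0.29 against 12 h (adjusted p 0.00424 in edgeR). ELOVL7 had a log2 change of -0.25 at 24 h (adjusted p 0.00503).

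**Figure D4:**
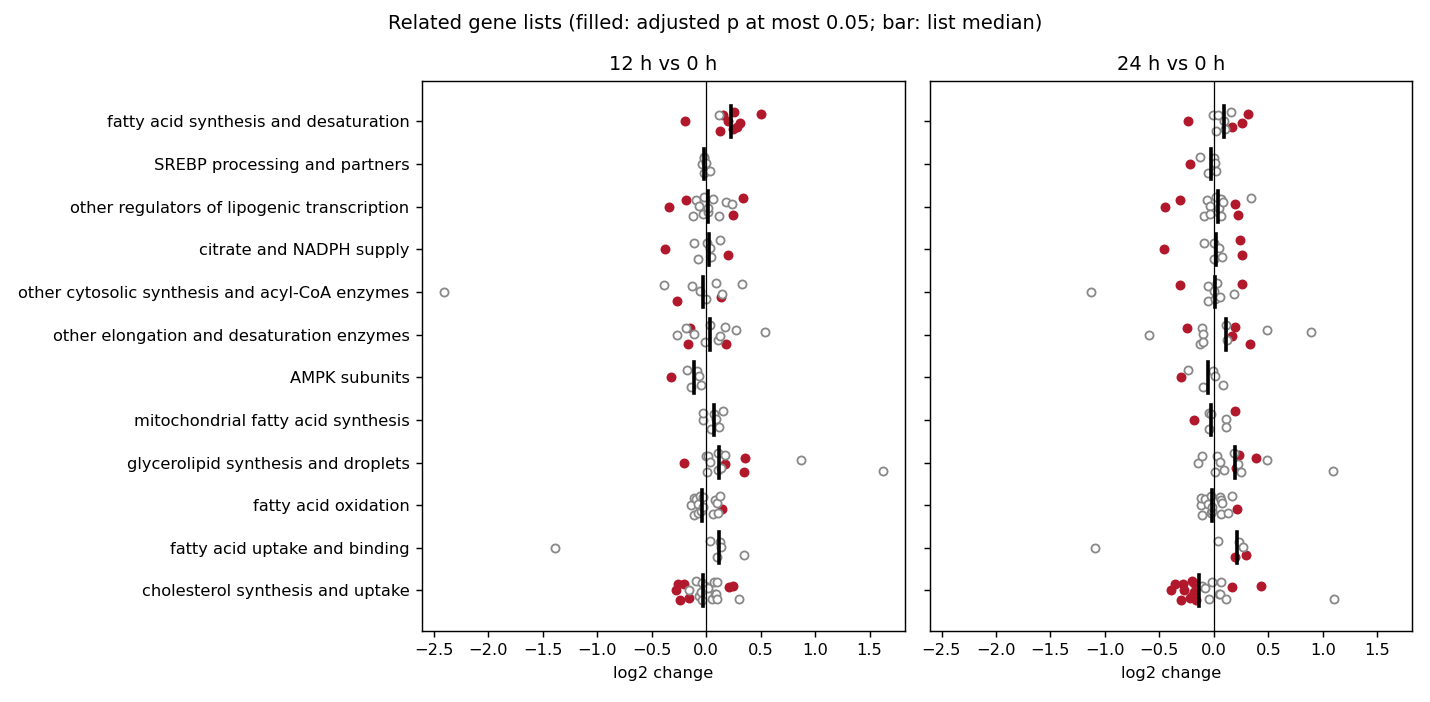
Log2 change of each tested gene in the set of 10 (top line) and in 11 related lists, at 12 h against 0 h (left) and 24 h against 0 h (right), with 1 point per gene, filled where the adjusted p is at most 0.05, and a bar at the list median. At 12 h the set of 10 has a median of 0.22 while that of cholesterol synthesis and uptake is -0.025, and at 24 h these are 0.096 and -0.14.

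Cholesterol synthesis and uptake, whose genes SREBP-2 chiefly drives, was set beside fatty acid synthesis without a test of the difference. At 12 h, 2 of its 22 genes rose and 5 fell, with a median log2 change of -0.025, and at 24 h 2 rose and 11 fell, with a median of -0.14. TM7SF2, a sterol reductase, averaged 153 ± 3.89 CPM before ASPN (SD, n = 2), 177 ± 1.19 CPM after 12 h and 206 ± 3.48 CPM after 24 h (SD, n = 3), with log2 changes of 0.21 and 0.43 (adjusted p 0.00109 and 1.07e-08 in edgeR).

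Among 14 glycerolipid and lipid droplet genes, 3 rose and 1 fell at 12 h (AGPAT3, LPIN3 and MGLL higher, GPAM lower), and 3 rose at 24 h (DGAT2, AGPAT3 and AGPAT2). The 12 h calls of this list were all lost without 0 h replicate 1, which leaves 1 library at 0 h. DGAT2, which completes triglycerides, had a log2 change of 0.39 at 24 h against 0 h (adjusted p 0.000173 in edgeR), with 22.9 ± 2.7 CPM before ASPN (SD, n = 2) and 29.8 ± 1.71 CPM after 24 h (SD, n = 3), and AGPAT3 had 0.23 (adjusted p 0.000333). Of 6 uptake and binding genes, 0 passed at 12 h in edgeR and in DESeq2 (1 at an unadjusted p under 0.05), and SLC27A2 and SLC27A4, which encode fatty acid transport proteins, rose at 24 h by 0.29 and 0.19 on the log2 scale. The 24 h calls of SLC27A2 and SLC27A4 were likewise lost without 0 h replicate 1. Of 16 oxidation genes, CPT1A, the gate for fatty acid entry into mitochondria, was the only 1 to pass. Its log2 changes were 0.15 at 12 h and 0.21 at 24 h (adjusted p 0.0321 and 0.000897 in edgeR). Both CPT1A calls were lost without 0 h replicate 1, which leaves 1 library at 0 h. HADH had 0.13 at 24 h (adjusted p 0.0715).

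The remaining lists showed few changes. Of 10 other cytosolic synthesis and acyl-CoA enzymes, DBI rose (0.14) and ACBD3 fell (-0.26) at 12 h, and ACSL4 rose (0.25) and ACBD3 fell (-0.31) at 24 h. Of 6 AMPK subunits, whose kinase inhibits ACACA by phosphorylation, PRKAB2 fell at both times (-0.32 and -0.30), and PRKAB1 had -0.11 at 24 h (adjusted p 0.345). Of 7 mitochondrial fatty acid synthesis genes, 0 passed at 12 h in edgeR and in DESeq2 (1 at an unadjusted p under 0.05), and at 24 h ACSF3 rose (0.19) and OXSM fell (-0.18). Leaving out 0 h replicate 1 leaves 1 library at 0 h, and in that fit the calls of PRKAB2 at both times were lost. Those of DBI and ACBD3 at 12 h and of ACSF3 and OXSM at 24 h were lost as well. Between 12 h and 24 h, SCD5, DGAT2 and TM7SF2 rose, INSIG1 and 3 genes of the cholesterol list fell, HMGCS1 and MVD among them, and no further gene of the 11 lists passed. The INSIG1 call was lost without 24 h replicate 1, that of SCD5 without 24 h replicate 3 and that of DGAT2 without 12 h replicate 1.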

How the data were processed

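RNA of LNCaP cells at 0, 12 and 24 h was measured by polyA RNA-Seq. The authors deposited raw counts of reads per gene. According to the methods, the authors trimmed adapters with Cutadapt, aligned reads to GRCh38 with STAR, counted with featureCounts and left 1 time-0 replicate out for quality. Strand and multi-mapping options are not given in the sources used here. The methods name an earlier GENCODE release than 44, the release used here for exon lengths and GC content. Of 36474 gene identifiers in the file, 30996 were in release 44 with the same version, and all of these had equal coordinates. A time-0 column whose number no time-0 label has was used without a replicate number.

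Genes passing filterByExpr (21071) were normalized by TMM and tested over all 8 libraries with edgeR 4.0.16 (quasi-likelihood, robust; limma 3.58.1, R 4.3.3), with Benjamini-Hochberg adjustment over all genes. The study's threshold added a 1.5-fold change. The procedure was also run on simulated counts with the spread of these data, without a GC trend or an outlying library. The outcome is not used as support here. CPM are TMM-normalized, and CPM per kilobase divide by the exon length of the gene. Well-counted genes have a mean of at least 100 normalized counts. Alternatives were other normalizations and filters, DESeq2 1.42.0, fits to the compared times alone, a GC and length correction, a replicate block, other thresholds and leaving out each library.

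The 10 genes and the lists were chosen with earlier results of these data known. The text names all 10, the 2 genes of each list with the smallest p at 24 h against 0 h, and, for FASN, SCD and SREBF1, the 3 best correlated well-counted genes. Some genes that this rule or the lists would name are not reported here.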

Additional observations from a re-analysis of the deposited data

How the results depend on the processing

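Of 460 values of the 10 genes under alternatives, 429 kept their direction and their side of the threshold, 18 lost a call, 8 gained 1 and 5 changed sign, each in a change that did not pass. Signs changed for ACACA at 24 h against 0 h after GC and length correction (0.0023), without the unnumbered 0 h library (0.042), without 24 h replicate 2 (0.00056) and without 24 h replicate 3 (0.015; -0.055 to 0.042 over all left-out libraries), and for ACSS2 at 24 h against 0 h after the correction (-0.0057). FASN, ACLY, ACSS2, ELOVL6, FADS2 and SREBF1 passed at 12 h in all 15 alternatives, as did ELOVL6, FADS2 and ME1 at 24 h.

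The median log2 change of the 10 genes at 12 h against 0 h was 0.24 with upper-quartile normalization, 0.23 without a low-count filter or with a mean of at least 100 counts, 0.16 with GC and length correction, and 0.20 to 0.24 leaving out 1 library. At 24 h against 0 h it was 0.10 with upper-quartile normalization, 0.032 with the correction, and 0.058 to 0.10 leaving out 1 library. At 24 h against 12 h it was -0.077 with upper-quartile normalization, -0.078 with a mean of at least 100 counts, -0.082 with the correction and -0.081 to -0.063 leaving out 1 library. A lower fold threshold (0.32 on the log2 scale) admitted 1 of the 10 at 12 h against 0 h and 1 at 24 h against 12 h, and leaving out 1 library 0 to 1 at 12 h.

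Leaving out 1 library, 7 to 10, 3 to 5 and 2 to 3 of the genes passed in the 3 comparisons. The replicate block, possible only between 12 h and 24 h, left 3 genes past the threshold. After the mean of each time point was subtracted from the log2 CPM of each gene, same-numbered 12 h and 24 h libraries correlated at 0.10, 0.027 and 0.029. The numbers are therefore not taken to pair them, and 42 genes in all were called with the block.

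Over all genes, 222 were called at 12 h against 0 h. The count was 140 with a mean of at least 100 counts, 123 with DESeq2, 792 at the lower fold, 117 at an adjusted p of 0.01 and 78 to 300 leaving out 1 library (78 without 0 h replicate 1). At 24 h against 0 h, 516 became 322, 1469 at the lower fold, 302 at 0.01 and 265 to 567 (265 without 0 h replicate 1). At 24 h against 12 h, 38 became 23 with DESeq2, 140 at the lower fold, 13 at 0.01 and 16 to 46. The counts of the 11 related lists moved by over 1.5 times in 93 of 506 values: at 24 h against 12 h, 4 genes of the cholesterol list passed, against 2 to 10 under alternatives, and at 12 h 7 passed, against 2 to 10. Where a setting does not itself change the genes, libraries or threshold, the cause was not tested. With 2 libraries at 0 h, a single library can decide a call.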

Other observations

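Genes whose levels ran most alike those of FASN, SCD and SREBF1 were sought among 13463 well-counted genes by Pearson correlation of log2 CPM over the 8 libraries. The points share 3 time points, the same libraries and their depth, so the values are a description. FASN ran most like HPN-AS1 (r = 0.989), BAZ2A (0.978) and TMCO4 (0.977). HPN-AS1, a noncoding RNA, averaged 2.68 ± 0.204 CPM before ASPN (SD, n = 2), 3.92 ± 0.337 CPM after 12 h and 3.04 ± 0.186 CPM after 24 h (SD, n = 3). SCD ran most like CXCL16 (0.963), FADS1 (0.960) and TTC9 (0.952), so that its nearest gene within the set of 10 was also among its 3 nearest overall. SREBF1 ran most like CYC1 (0.992), ULK3 (0.990) and LOXL1-AS1 (0.986).

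Within the set of 10, FASN correlated at 0.885 with ACLY, 0.867 with ACACA and 0.857 with SREBF1, but at 0.452 with SCD. SREBF1 correlated at 0.926 with FADS2 and at -0.805 with ME1.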
